A study of Mus musculus with 40 samples.

Results

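The comparison described here is the state of the mouse liver 48 h after partial hepatectomy at 12 months of age, set against livers of the same age at 0 h, before the operation. All 11119 genes of the deposited expression tables are members, and each gene's value is its level at 48 h minus its level at 0 h. The wider series holds 40 RNA-seq samples from mice of 3 or 12 months, taken 0, 48 or 72 h after hepatectomy, some after treatment with ATRi, an inhibitor of the replication checkpoint kinase ATR. The design asks how gene expression in the liver moves from before to after the operation, with and without ATRi.

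The 48 h group was 3 mice at 12 months of age and the 0 h group was 8 mice of that age, and neither was labelled with ATRi. Strain and sex are not given in the sources used here, nor is a genotype for the 12-month mice. Some of the 3-month mice at 0 h carry wt in their labels, without further explanation. None of the 8 mouse numbers at 0 h recurs at 48 h (0 of 8), whereas all 8 recur at 72 h. The 48 h mice are numbered 1 to 3 in more than 1 group, so these numbers do not identify an animal across groups. The labels thus pair no 48 h liver with a 0 h liver, and do not show by themselves that the animals differ. The authors deposited 1 mean per group, without the single mice, so the comparison has no spread of its own, no test and no p-value. No sham-operated group is labelled, so the operation and the regrowth that follows it cannot be told apart. For comparison, the levels at 3 months are given where they bear on a gene (7 mice at 0 h, 3 at 48 h, no ATRi). Levels are on a log2 scale of a quantity the tables call sigma, which the sources used here do not define. Genes whose levels lay 1 or more apart were counted as higher or lower.

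Partial hepatectomy removes lobes of the liver, and the remaining hepatocytes, which are normally at rest, re-enter the cell cycle and divide until the mass of the organ is restored. DNA replication requires that origins be licensed with the MCM helicase, that the helicase be fired, and that polymerases and deoxynucleotides be at hand. The genes of these S phase steps are largely driven by E2F factors, and those of mitosis later by a complex that binds CHR elements, together with FOXM1. While it grows, the liver also has to carry on its own work of lipid, bile acid, amino acid and plasma protein metabolism, and the remnant is known to accumulate fat for a time.

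The labels call the samples liver and hepatocytes, and the summed level of hepatocyte markers was high and near-equal at both times (log2 of 16.117 and 16.105). Single markers did differ. Of 23 measured, 3 were higher and 0 were lower by 1 or more, against 3.26% and 1.85% of all genes. Their differences ran from -0.82 to 1.98, with a median of -0.09. Albumin (Alb) stood at 15.23 at 0 h and at 15.25 at 48 h, and transthyretin (Ttr) at 12.84 and 12.83. Markers of other liver cells were also present, among them Clec4f of Kupffer cells at 7.27 at 0 h and Lyve1 of sinusoidal endothelium at 4.25, so the libraries were not of hepatocytes alone. In such bulk RNA, fewer cells of a type and less RNA per cell cannot be told apart.

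A yardstick for the scatter between mice came from the single livers in the tables, which are 4 mice of 12 months at 72 h with ATRi. Their SD per gene had a median of 0.233. They belong to another time and treatment, so their spread is a scale for reading sizes and not an error of the comparison.

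Most genes differed little between 0 h and 48 h. The median difference was -0.02, the 5th and 95th percentiles were -0.67 and 0.79, and 363 genes (3.26%) were higher by 1 or more while 206 (1.85%) were lower by 1 or more. Differences beyond the whole range of the 4 single livers were seen for 21.3% of all genes, for 323 of the 363 higher genes and for 155 of the 206 lower genes. The higher and lower genes were chosen by the size of the difference, which in part sets their counts here. As an alternative with no size required, limma with the spread borrowed from the 4 single livers called 5.59% of genes higher and 4.86% lower (622 and 540 genes). The plot of 48 h against 0 h levels shows the called genes on either side of a dense diagonal.

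**Figure D1:**
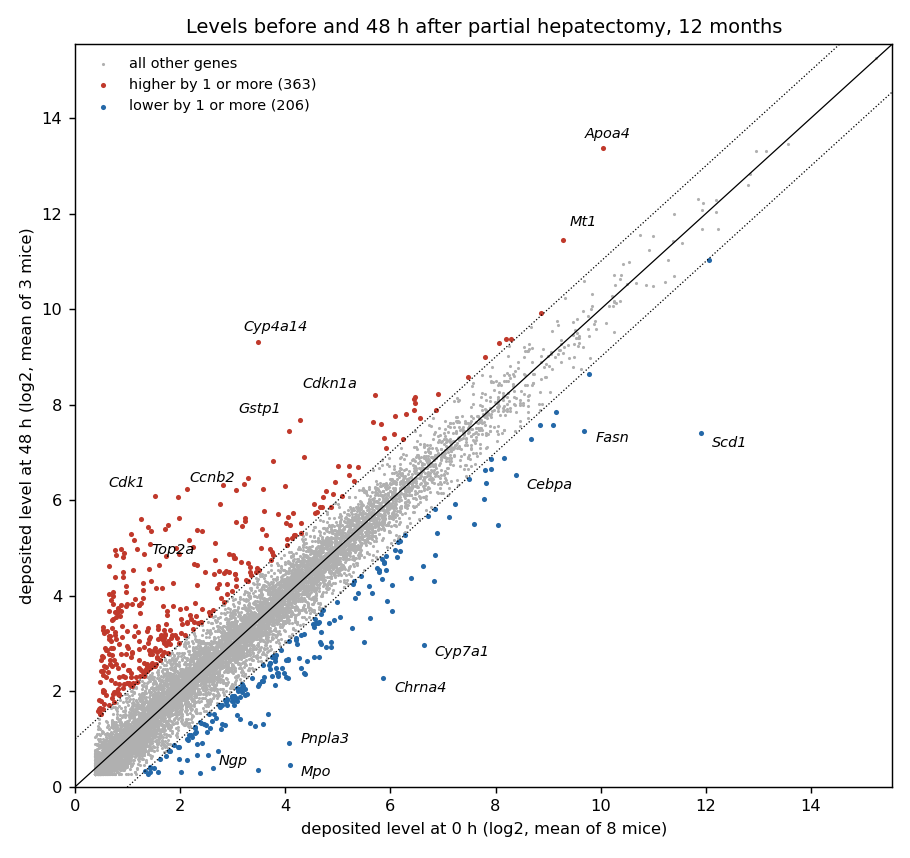
Level at 48 h (y axis, log2 sigma, mean of 3 mice) against level at 0 h (x axis, log2 sigma, mean of 8 mice) at 12 months, 1 point per gene, with the 363 genes higher and the 206 genes lower by 1 or more in colour. Many of the higher genes start near the low end at 0 h, with 106 of them at a level under 1, and Scd1 and Cyp7a1 lie far under the diagonal.

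Cell division genes led the higher side. Across 12 lists of replication and mitosis genes, with 184 measured genes, 119 stood higher by 1 or more and 0 lower, against 3.26% and 1.85% of all genes, and the median difference was 1.43. The median level of these genes went from 1.56 at 0 h to 3.54 at 48 h. Of the 119 genes, 118 differed by more than the range of the 4 single livers, and 108 were also higher by 1 or more at 3 months. The 119 were chosen by the size of that difference, which largely sets the count of 118. Of whole lists, 19 of 19 mitotic entry genes and 9 of 19 G1 and S phase genes lay beyond that range, against 21.3% of all genes. The 119 genes make up 32.8% of all the higher genes. The plot of the members of 33 lists sets these genes beside those of metabolism and other cell types.

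**Figure D2:**
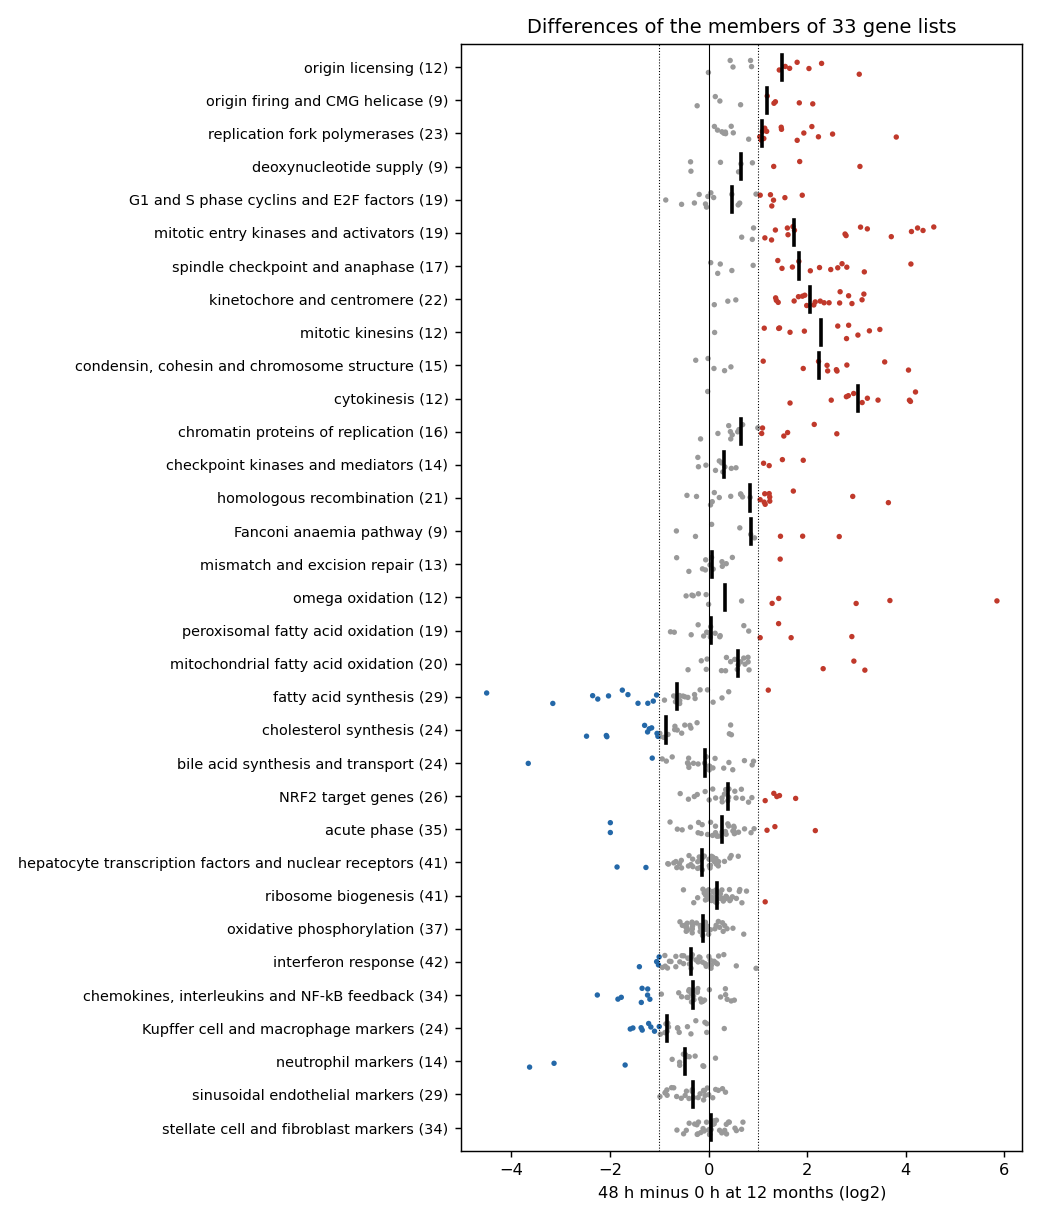
Difference of each measured member, 48 h minus 0 h at 12 months (x axis, log2 sigma), for 33 gene lists in rows with the number of measured members in brackets. Each point is a gene, in red at 1 or more and in blue at -1 or less, and a black bar marks the list's median. The lists of mitosis lie furthest right, up to a median of 3.03 for cytokinesis, and the cholesterol synthesis, macrophage and fatty acid synthesis lists lie furthest left.

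Origin licensing genes stood higher at 48 h in 7 of 12 measured members, with a median of 1.49 (1.65 at 3 months). Mcm5, a subunit of the replicative helicase, went from 2.32 to 5.37, a difference of 3.05. Mcm6 differed by 2.29 (3.17 to 5.46), Mcm3 by 2.03 and Mcm2 by 1.79. The loading factors Cdt1 and Cdc6 differed by 1.64 and 1.43. The origin recognition complex, which marks origins, had smaller differences: Orc6 differed by 0.85, Orc1 by 0.49, Orc2 by 0.44 and Orc5 by -0.01. Geminin (Gmnn), the inhibitor of Cdt1, differed by 0.87.

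Among 9 genes of origin firing and the helicase, 5 were higher by 1 or more, with a median of 1.19. Dbf4, the activator of the Cdc7 kinase, went from 1.68 to 3.79 and Cdc45, a helicase cofactor, from 1.22 to 3.06. Their differences were 2.11 and 1.84, whereas Cdc7 itself differed by 0.65. Mcm10, which acts when the helicase starts to unwind, was the sole member under 0, at -0.23 (4.55 to 4.32). Of 23 fork polymerase and chromatin assembly genes, 14 were higher by 1 or more and the median was 1.09. They were led by Top2a, which untangles replicated DNA (1.18 to 4.98, a difference of 3.81), the histone chaperone Asf1b (2.51) and the leading-strand polymerase Pole (2.23). The primase Prim1 differed by 2.09, the ligase Lig1 by 1.48 and the single-strand binding protein Rpa2 by 1.47.

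Of 9 deoxynucleotide supply genes, 3 were higher by 1 or more. Rrm2, the small subunit of ribonucleotide reductase, went from 3.76 to 6.83, a difference of 3.07. Rrm1, the large subunit, differed by 1.85 and the thymidylate synthase Tyms by 1.32. The p53-linked small subunit Rrm2b differed by 0.24, and Samhd1, which breaks deoxynucleotides down, by -0.36. Upstream, 6 of 19 G1 and S phase regulators were higher by 1 or more, with a median of 0.47. Cyclin D1 (Ccnd1) went from 1.37 to 3.27 (1.90), E2f1 differed by 1.31, and cyclin E1 (Ccne1) by 1.28 at 12 months and by 2.72 at 3 months. E2f8, a repressor of late S phase, differed by -0.29 at 12 months and by -2.23 at 3 months, with an SD of 1.62 in the 4 single livers.

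The largest list medians belonged to mitosis. Of 19 mitotic entry genes, 19 were above 0 and 16 were higher by 1 or more, with a median of 1.74 (2.93 with the lowest of 3 equal parts of all genes by level left out). Cdk1 (ENSMUSG00000019942.13, chr10:69335146-69352938), the kinase that starts mitosis, went from 1.52 to 6.08. That difference of 4.57 was the second in size of all 11119 genes. The Aurora kinase Aurka went from 1.26 to 5.60 (4.35), the polo kinase Plk1 from 1.07 to 5.30 (4.24), and cyclin B2 (Ccnb2) from 1.96 to 6.08 (4.11). In the single livers at 72 h with ATRi, Cdk1 lay between 4.43 and 5.31, which is under its 48 h mean and far over its 0 h mean. Foxm1, the factor that activates many of these genes, differed by 3.22 (0.98 to 4.19).

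Spindle checkpoint genes were higher by 1 or more in 12 of 17 members (median 1.83), kinetochore genes in 19 of 22 (2.06), mitotic kinesins in 11 of 12 (2.28) and cytokinesis genes in 11 of 12 (3.03). Birc5, of the chromosomal passenger complex, went from 2.13 to 6.24, and its partner Cdca8 from 1.40 to 4.56. Spc25, of the kinetochore's NDC80 complex, went from 3.06 to 6.21. The kinesin Kif22 went from 0.91 to 4.38, the spindle protein Hmmr from 0.77 to 4.96, and Prc1, which bundles the midzone, from 0.77 to 4.84. Members that stayed near 0 included the securin Pttg1 (0.04), the checkpoint gene Bub3 (0.18), the centromere gene Cenpp (0.11), the kinesin Kif24 (0.12) and the citron kinase Cit (-0.02). Citron kinase stood at 0.63 at 0 h, near the low end of the scale. Of 31 tubulins and microtubule proteins, 11 were higher by 1 or more and the median was 0.77, with Tacc3 of the spindle at 3.10 and Plk4, the kinase of centriole duplication, at 3.08.

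Chromosome structure genes divided by complex. Every measured condensin subunit was higher by more than 1, from Ncapd3 at 1.11 through Smc2 at 2.59 to Ncaph at 2.80. The cohesin core subunits were not: Smc1a differed by 0.32, Smc3 by -0.01, Rad21 by 0.45 and Stag2 by -0.26. The 2 proteins listed that set cohesin on replicated chromosomes did differ, Esco2 by 3.57 and Cdca5 by 2.60. The proliferation marker Mki67 went from 1.11 to 5.17, a difference of 4.05. Among 16 chromatin proteins of replication, 6 were higher by 1 or more, led by the remodeller Hells (2.60) and Uhrf1 (2.14), which carries DNA methylation through replication.

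**Figure D3:**
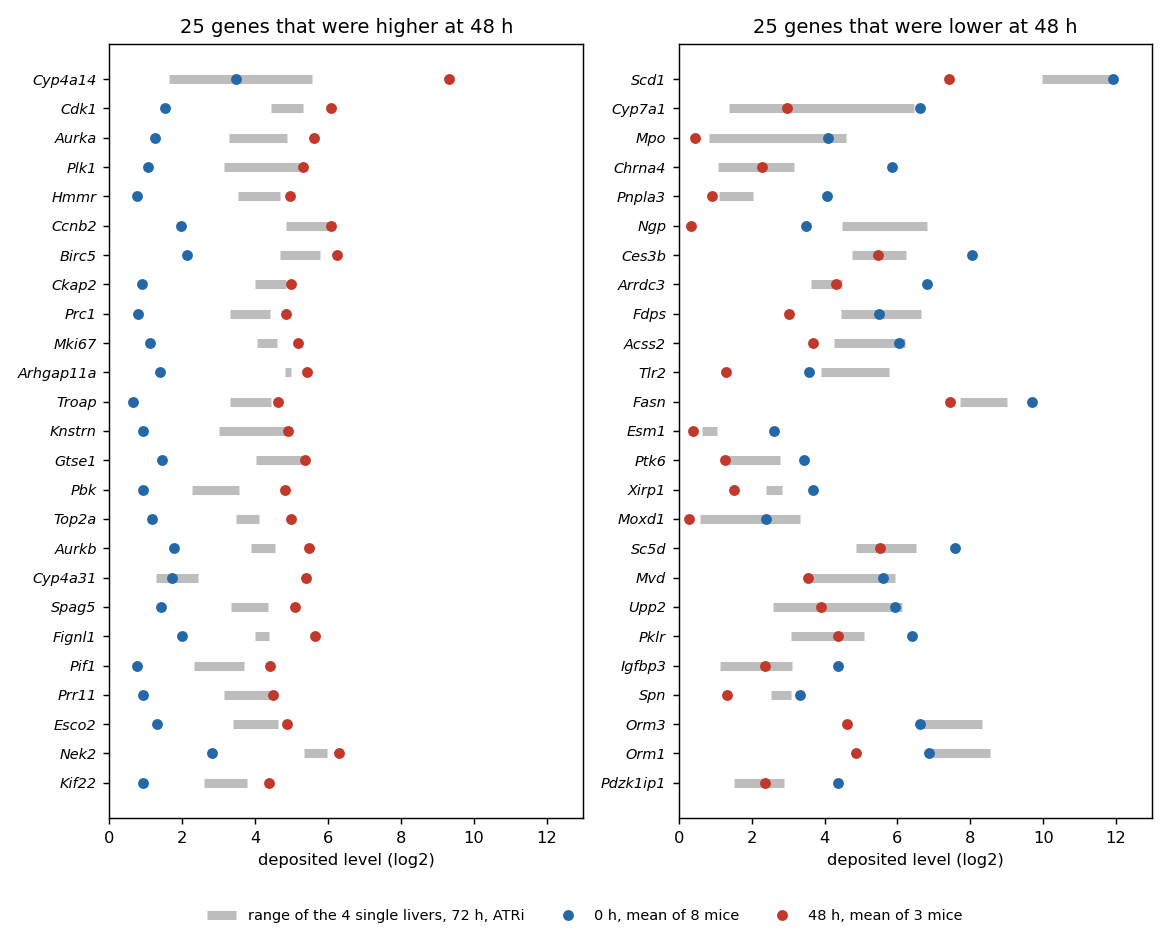
Levels (log2 sigma, x axis) at 0 h and 48 h at 12 months for the 25 genes with the largest positive and the 25 with the largest negative difference, with the range of the 4 single livers (72 h, ATRi) as a grey bar. Cell division genes fill most of the higher panel, while the lower panel mixes lipid, neutrophil and other genes.

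Of the 25 genes with the largest positive differences, all 25 differed by more than the range of the 4 single livers and 23 were also higher by 1 or more at 3 months. The exceptions were Cyp4a14 and Cyp4a31, taken up with the lipid genes. Several leaders were in no list, and they too are known from mitosis: Arhgap11a (4.05), Troap (3.98), Knstrn (3.97), the kinase Pbk (3.89), Spag5 (3.67) and the kinase Nek2 (3.51). At 72 h without ATRi, 23 of the 25 stood under their 48 h level, but 0 of them were within 1 of their 0 h level. The genes were chosen by their high 48 h mean, so part of a lower level at 72 h is expected from the choice alone.

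Promoters of some leading genes are shown because some short sequence motifs were more frequent there among the higher genes than among all genes. The sequences are from RefSeq (GRCm38.p6), from 250 bases before to 30 bases after the annotated start, 5′ to 3′ on the gene's strand, with motif matches in capitals. Motifs were searched on both strands, and matches may overlap: the CHR element as TTTGAA or TTCGAA, the CCAAT box as CCAAT, and the E2F site as TTTCCCGC, TTTGGCGC, TTTCGCGC or TTTGCCGC. Cdk1 lies on the minus strand at chr10:69352883-69353162, Hmmr on the minus strand at chr11:40733408-40733687, Kif22 on the minus strand at chr7:127042391-127042670 and Mcm5 on the plus strand at chr8:75109259-75109538.
Cdk1: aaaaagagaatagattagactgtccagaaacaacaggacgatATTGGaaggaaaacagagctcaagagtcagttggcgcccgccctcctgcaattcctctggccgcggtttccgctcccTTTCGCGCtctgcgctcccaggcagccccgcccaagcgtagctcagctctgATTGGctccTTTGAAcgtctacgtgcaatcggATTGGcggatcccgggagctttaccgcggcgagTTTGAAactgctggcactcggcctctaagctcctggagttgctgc
Hmmr: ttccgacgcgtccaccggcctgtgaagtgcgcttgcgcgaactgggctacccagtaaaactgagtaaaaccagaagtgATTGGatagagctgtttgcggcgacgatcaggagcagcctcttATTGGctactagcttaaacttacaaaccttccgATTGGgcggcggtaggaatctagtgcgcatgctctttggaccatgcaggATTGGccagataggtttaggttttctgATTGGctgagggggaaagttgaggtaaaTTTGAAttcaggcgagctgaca
Kif22: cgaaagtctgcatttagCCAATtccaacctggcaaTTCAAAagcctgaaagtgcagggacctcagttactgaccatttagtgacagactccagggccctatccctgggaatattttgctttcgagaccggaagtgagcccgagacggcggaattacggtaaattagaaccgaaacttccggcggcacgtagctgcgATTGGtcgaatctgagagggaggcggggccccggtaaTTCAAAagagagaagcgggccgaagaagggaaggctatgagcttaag
Mcm5: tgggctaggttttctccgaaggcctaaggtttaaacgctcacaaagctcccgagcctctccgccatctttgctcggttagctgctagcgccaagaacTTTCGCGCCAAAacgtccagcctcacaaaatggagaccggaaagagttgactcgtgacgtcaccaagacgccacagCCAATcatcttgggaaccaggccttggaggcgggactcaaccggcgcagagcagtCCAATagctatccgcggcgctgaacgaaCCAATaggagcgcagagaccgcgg
The Cdk1 window holds 1 E2F site, 2 CHR elements and 3 CCAAT boxes. The Kif22 window holds 2 CHR elements and 2 CCAAT boxes, and the Hmmr window 1 CHR element and 5 CCAAT boxes. The Mcm5 window holds no CHR element, but has 2 overlapping E2F sites, which read into each other on opposite strands, and 3 CCAAT boxes.

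A promoter on the same chromosome was found for 8234 measured genes (74.1%), among them 275 of the higher and 148 of the lower genes. A CHR element was present in 13.4% of all these promoters, in 33.8% of those of the higher genes and in 12.8% of those of the lower genes. Among mitotic kinesins and cytokinesis genes it was present in 91.7% of each list (11 of 12), and among origin licensing genes in 10% (1 of 10). The E2F site was present in 3.70% of all promoters, in 11.3% of the higher genes and in 50% of the licensing genes (5 of 10). CCAAT boxes were found in 37.7% of all promoters and 58.5% of the higher genes. Genes higher at both ages held a CHR element in 40.9% of 181 promoters, and genes higher at 12 months with a difference under 1 at 3 months in 20.2% of 94. In all, 9 motifs were searched. The PPAR DR1 element was in 0 promoters of the omega, peroxisomal and mitochondrial oxidation lists (0 of 7, 0 of 14 and 0 of 18), against 0.0972% of all promoters. Among 22 promoters of NRF2 target genes, the antioxidant element ARE (TGACNNNGC) was in 27.3% and the AP-1 site (TGANTCA) in 22.7%, against 13.9% and 5.22% of all promoters. The E-box (CACGTG) was in 27.8% of 18 clock gene promoters, against 9.55% of all. Such shares were not particular to these lists. The ARE was in 40% of 20 promoters of the ATF4 amino acid response, and the AP-1 site in 29.4% of 17 hepatocyte marker promoters. The E-box was in 36.7% of 30 autophagy and lysosome promoters. A match is a run of letters, not a measured binding site, and Birc5, with no match to any of these motifs in its window, differed by 4.10.

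Genome stability genes followed in part. Of 98 genes in 6 lists, 24 were higher and 1 was lower by 1 or more, with a median of 0.28. Among checkpoint genes, Clspn, the mediator that brings Chk1 to ATR, differed by 1.92 (0.66 to 2.58), Chek1 by 1.50 and Chek2 by 1.11. The apical kinases differed less, Atr by 0.55 (2.47 to 3.02) and Atm by 0.46 (1.71 to 2.17). At 3 months Atr differed by 0.17 and Atm by -0.30. Homologous recombination genes were higher by 1 or more in 10 of 21 members, with a median of 0.84. Fignl1 went from 1.98 to 5.63 (3.65). Brca2, a central gene of this repair, differed by 1.24 at 12 months and by 0.32 at 3 months, with an SD of 0.12 in the 4 single livers.

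In the Fanconi pathway, which repairs DNA crosslinks, 3 of 9 genes were higher by 1 or more: Ube2t (2.65), Fancb (1.91) and Fancd2 (1.46). The largest negative value there was Fance at -0.66. Of 13 mismatch and excision repair genes, 1 was higher by 1 or more, the glycosylase Neil3 (1.45), and the list's median was 0.06. Of the excision repair factors that sense or verify damage, Xpa differed by -0.65 and Xpc by -0.40.

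Among 29 p53 target genes, 5 stood higher by 1 or more and 1 lower, with a median of 0.18 (0.42 at 3 months). Cdkn1a, the cell cycle inhibitor p21, went from 5.71 to 8.20, a difference of 2.50 beside 2.39 at 3 months. Phlda3, an inhibitor of Akt, differed by 2.32 at 12 months and 4.10 at 3 months, and Trp53inp1 by 1.52 and 0.57. Gtse1 (3.91) is also a mitotic gene. Bbc3, which encodes the death activator PUMA, was lower, at 3.56 against 2.22 (-1.34), with -0.07 at 3 months. The other BH3-only activators of cell death that were lower by 1 or more were Bmf at -1.82 (4.30 to 2.48) and Bik at -1.19 (2.23 to 1.04). Of the 26 cell death genes, 10 were above 0 and 3 were lower by 1 or more, with a median of -0.07. None was higher by 1 or more (0 of 26), which is near the share of all genes (3.26%), and Bax differed by 0.69.

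Some fat oxidation genes were also on the higher side. Omega oxidation, in which CYP4A enzymes hydroxylate the far end of fatty acids, held the gene with the largest difference of all. Cyp4a14 (ENSMUSG00000028715.2, chr4:115486200-115496142) went from 3.47 to 9.32, a difference of 5.85. In the single livers at 72 h with ATRi it spanned 1.63 to 5.57 (SD 1.97), the widest spread among the 25 leading genes, yet all 4 lay under the 48 h mean. Its relatives Cyp4a31 (1.72 to 5.39, 3.68), Cyp4a10 (1.28 to 4.28, 2.99) and Cyp4a32 (3.07 to 4.35, 1.29) were higher with it, as was the fatty aldehyde dehydrogenase Aldh3a2 (1.42). The other members, such as Cyp4f14 (-0.34) and Cyp4a12a (-0.46), were not, so the list's median was 0.33 with 6 of 12 genes above 0. With the lowest of 3 equal parts of all genes by level left out, that median was -0.002. Near-identical Cyp4a genes may share reads.

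The thioesterases that release fatty acids from coenzyme A went the same way: Acot1 from 2.75 to 5.92 (3.17), Acot2 from 2.42 to 5.36 (2.94), Acot3 from 1.97 to 4.87 (2.90) and Acot4 from 3.04 to 4.46 (1.42). These are close neighbours in the genome and may share reads too. In the peroxisome, Ehhadh, the bifunctional enzyme, went from 6.45 to 8.12 (1.67, SD 0.14 in the single livers), and Eci2 differed by 1.04. Peroxisomal genes numbered 4 of 19 higher by 1 or more. In the mitochondrion, 16 of 20 genes were above 0, 3 were higher by 1 or more and the median was 0.59. The carnitine importer Slc22a5 went from 2.32 to 4.64 (2.32), and Cpt1a, the gate for fatty acid entry, from 4.39 to 5.10 (0.71). Among genes known as targets of PPAR alpha or of fasting, Pdk4, which spares glucose, went from 3.58 to 5.78 (2.19), Vnn1 differed by 1.71 and Angptl4 by 1.70. These were the 3 of 26 list members higher by 1 or more, while 10 were below 0, among them Cyp2u1 at -1.39 and Vnn3 at -0.86, and the median was 0.33. Of the 8 ketone body genes none differed by 1 or more, where 3.26% of all genes were higher and 1.85% lower.

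In the younger mice the medians of these lists lay below 0. At 3 months the omega oxidation list had 0 of 12 genes above 0 and a median of -1.05, the peroxisomal list a median of -0.72 and the mitochondrial list a median of -0.28 with 7 of 20 genes above 0. Cyp4a14 went from 8.49 to 5.57 at 3 months, a difference of -2.92, so its 0 h level was higher in the younger mice and its 48 h level higher in the older. Cyp4a10 went from 5.70 to 2.22 at 3 months. Pdk4 differed by -1.01, Slc22a5 by -0.29 and Ehhadh by -0.63.

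Fatty acid synthesis was lower at 48 h. Of 29 genes, 25 were below 0, 11 were lower and 1 higher by 1 or more, and the median was -0.65. Scd1 (ENSMUSG00000037071.3, chr19:44394455-44407879), the desaturase that makes oleate, had the largest negative difference of all genes, going from 11.91 to 7.41 (-4.50). The single livers at 72 h with ATRi lay between 9.98 and 11.91, all over the 48 h mean. Pnpla3, a lipid droplet protein, went from 4.08 to 0.92 (-3.16), Acss2, which makes acetyl-CoA from acetate, from 6.04 to 3.68 (-2.35), and fatty acid synthase (Fasn) from 9.69 to 7.44 (-2.25). The citrate lyase Acly differed by -1.75 and Acacb by -1.64, but Acaca, the other acetyl-CoA carboxylase, by -0.02. Of the exceptions, Agpat9 was higher by 1.21. At 3 months 19 of the 29 genes were below 0 and 3 were lower by 1 or more, with a median of -0.13. Scd1, Fasn and Acly were among the 9 above 0 there (0.61, 0.69 and 0.48), and Acss2 differed by -0.60.

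Cholesterol synthesis was lower too, with 21 of 24 genes below 0, 9 lower by 1 or more and a median of -0.87. Fdps went from 5.50 to 3.02 (-2.48), Sc5d from 7.59 to 5.51 (-2.08) and Mvd from 5.60 to 3.54 (-2.06). The list's median varied between the 4 single livers from -0.79 to 0.62 around their mean, and livers of that 1 group thus lay further apart than 0 h and 48 h did. Exceptions above 0 included Ggps1 (0.46) and Insig2 (0.42). A CCAAT box was present in the promoters of 84.2% of the cholesterol synthesis genes (16 of 19), and the SREBP element in 0 of 19, against 0.170% of all promoters. The CCAAT box was as frequent in some other lists, such as the Fanconi pathway (8 of 8).

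Among 24 bile acid genes, 2 were lower by 1 or more and the median was -0.07. Cyp7a1 (ENSMUSG00000028240.2, chr4:6265612-6275633), which sets the rate of bile acid synthesis, went from 6.63 to 2.97, a difference of -3.66. The single livers spanned 1.38 to 6.46 for this gene, which takes in the 48 h mean and nearly reaches the 0 h mean, so its difference is smaller than the range of those livers. Slc10a1, which takes bile acids up from blood, went from 9.78 to 8.64 (-1.15). Of the lipoprotein genes, Apoa4 went from 10.04 to 13.36 (3.33, and 3.07 at 3 months), and Apob from 8.87 to 9.92 (1.05, SD 0.17 in the single livers, and -0.09 at 3 months). Mfsd2a, a lysophospholipid transporter in none of the lists, went from 3.21 to 6.33 (3.12, and 0.69 at 3 months).

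Carbohydrate genes differed little as lists. Pklr, liver pyruvate kinase, went from 6.40 to 4.37 (-2.03) and the regulators Pfkfb3 and Pfkfb2 differed by 1.28 and 1.02, but the median of 19 glycolysis genes was 0.05 (0.16 with the lowest of 3 equal parts of all genes by level left out). In serine and one-carbon metabolism, Psat1 went from 0.98 to 3.26 (2.27) and Mthfd2 from 2.93 to 4.50 (1.57). Both are also targets of the amino acid response factor ATF4, as is the glutamine transporter Slc38a2 (6.47 to 8.04, 1.57). Other members of that response had no such difference: Asns differed by -0.02, Chac1 by -0.55 and Slc7a5 by -0.87, and the median of 24 genes was 0.03 (0.23 with the lowest of 3 equal parts of all genes by level left out).

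Hepatocyte identity genes were mostly steady, with exceptions in the regulators. Of 41 liver transcription factors and nuclear receptors, 2 were lower by 1 or more and 0 higher, with a median of -0.13. Cebpa (ENSMUSG00000034957.10, chr7:35119293-35121928), a factor known to hold hepatocytes at rest, went from 8.39 to 6.53 (-1.86). The single livers at 72 h with ATRi lay between 6.68 and 6.93 (SD 0.13), while the 72 h mean without ATRi was 8.11 and the 48 h mean with ATRi 7.88. At 3 months Cebpa went from 7.15 to 7.72 (0.58). Nr2f2 differed by -1.27, whereas Hnf4a, the central hepatocyte factor, went from 7.53 to 7.96 (0.43).

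The acute phase is the surge of plasma proteins after injury, and its list had a small median difference at 12 months. Of 35 genes, 3 stood higher by 1 or more and 2 lower, with a median of 0.27. At 3 months 15 were higher and 1 lower, with a median of 0.65. The list's median varied from -0.37 to 0.41 between the single livers at 72 h with ATRi. The metallothionein Mt1 went from 9.28 to 11.44 (2.16, against 4.34 at 3 months), and Socs3, the brake on STAT3, differed by 1.34. Saa1 differed by -0.13 at 12 months and by 2.88 at 3 months. The orosomucoids were lower: Orm1 went from 6.86 to 4.86 and Orm3 from 6.62 to 4.63, a difference of -2.00 (-1.995 before rounding) for each. They are neighbours with near-equal values that may share reads. At 3 months they differed by 0.55 and 2.82.

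Detoxification genes were mixed. Of 26 targets of the antioxidant factor NRF2, 21 were above 0, 5 were higher by 1 or more and the median was 0.40. Haem oxygenase (Hmox1) went from 5.82 to 7.59 (1.76), Gclc, of glutathione synthesis, from 4.94 to 6.37 (1.44), and Nqo1 differed by 1.15. The glutathione transferases Gstp1 (4.28 to 7.68, 3.40) and Gstp2 (4.08 to 7.45, 3.37) had near-equal values and may share reads, and Gstm2 differed by 1.54. Of 18 glutathione transferases, 4 were higher by 1 or more and 8 were below 0, such as Gstm7 at -0.82, with a median of 0.11. Of 18 genes of glucuronidation and sulphation, 0 were higher and 2 lower by 1 or more, with a median of -0.18. Among 39 cytochrome P450 genes of families 1 to 3, 2 were higher and 1 lower by 1 or more, and Cyp3a11, a main drug-metabolising enzyme, went from 8.06 to 9.29 (1.22). Male-biased liver genes were below 0 in 17 of 19, with 5 lower and 1 higher by 1 or more and a median of -0.41 (-0.67 at 3 months). Hsd3b5 among them went from 4.55 to 2.71 (-1.84). The higher one was Gstp1. The median of the male-biased list varied from -0.45 to 0.13 between the single livers, which takes in -0.41. Of its 19 genes, 5 differed by more than the range of those livers, against 21.3% of all genes.

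Most signalling lists had medians near 0, with single genes beyond. The list furthest from 0 was that of periportal genes, with 19 of 29 below 0 and a median of -0.32 (-0.36 at 3 months), where the single livers spanned -0.13 to 0.23. Igfbp3, which carries IGF1 in blood, went from 4.37 to 2.35 (-2.02, and -1.71 at 3 months). None of the 23 genes of the EGF, HGF and FGF axis differed by 1 or more, the receptors Egfr and Met differing by -0.39 and -0.32. Of 25 immediate early genes, Klf6 (1.52) and Klf4 (1.41) were higher and Egr1 (-1.65) was lower by 1 or more. In the clock, Usp2 differed by 1.68 and Noct by 1.02, and the repressors Nr1d1 and Per2 by -1.46 and -1.19.

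Growth machinery, by contrast with the cell cycle, was nearly flat on this scale. Of 249 genes of ribosomes, translation, splicing, proteasome and mitochondria, 4 were higher and 0 lower by 1 or more. The median was 0.16 for 41 ribosome biogenesis genes and -0.12 for 37 oxidative phosphorylation genes. The higher genes were Taf1d (1.15), Rpl3 (1.51), the splicing factor Hnrnph1 (1.19) and Amd1 of polyamine synthesis (1.01). Of 21 ER chaperones, none differed by more than the range of the single livers (0 of 21).

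Immune genes were lower in part. Of 94 genes in the 3 immune lists (interferon response, chemokines and interleukins, and antigen presentation), 14 were lower and 0 higher by 1 or more, with a median of -0.30. Antigen presentation did not share this, with 9 of 18 genes below 0, 2 lower by 1 or more and a median of 0.0015. Macrophage markers, a list of their own, were below 0 almost throughout: 23 of 24 were below 0, 8 were lower by 1 or more, 17 differed by more than the range of the single livers (21.3% of all genes did), and the median was -0.84 (-0.30 at 3 months). Lyz2 (lysozyme) went from 5.64 to 4.05 (-1.59), Csf1r, the receptor that keeps macrophages alive, from 5.32 to 3.95 (-1.37), and Clec4f, which marks resident Kupffer cells, from 7.27 to 6.43 (-0.84). Marco, a scavenger receptor, differed by -0.43 at 12 months and by 1.70 at 3 months. The log2 of the summed level of the 24 markers went from 9.36 to 8.79.

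Neutrophil granule genes made up some of the lowest. Myeloperoxidase (Mpo) went from 4.09 to 0.46 (-3.63) and Ngp from 3.48 to 0.34 (-3.14), both to near the low end of the scale at 48 h, where the lowest level is 0.264. The single livers, however, ranged from 0.83 to 4.59 for Mpo, and from 4.475 to 6.802 for Ngp, over both its 0 h and its 48 h mean. Differences beyond the range of those livers were seen for 2 of the 14 neutrophil markers, against 21.3% of all genes. Of the 14 neutrophil markers, 13 were below 0 and 3 were lower by 1 or more, and Ly6g, a defining marker, stood at 0.38 and 0.26, at the lowest level at both times. The low end differs between the times, so such a gene counts as below 0 without being measured, and 7 of the 14 lay under the 5th percentile of the level at 0 h or at 48 h. T and NK cell markers were below 0 in 16 of 17 (median -0.39) and endothelial markers in 23 of 29 (median -0.31). Neither list had a gene beyond 1, which is near the share of all genes (3.26% higher and 1.85% lower). Stellate cell markers had a median of 0.04. The part of cell numbers in the immune gene differences was not tested.

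Inflammatory signals were lower as well. Of 34 chemokine, interleukin and NF-kB genes, 27 were below 0 and 8 were lower by 1 or more, whereas at 3 months 7 were higher and 1 lower. The median was -0.33, within the -0.45 to 0.24 that the single livers spanned, and 8 of the 34 differed by more than the range of the livers, a share near that of all genes (21.3%). The Toll-like receptor Tlr2 went from 3.57 to 1.31 (-2.26), the chemokine Cxcl14 from 4.77 to 2.93 (-1.84) and interleukin 1 beta (Il1b) from 4.41 to 2.64 (-1.77). Ccl2, which draws monocytes, went from 2.68 to 1.44 at 12 months (-1.24) and differed by 1.72 at 3 months. Of 42 interferon response genes, 30 were below 0 and 4 were lower by 1 or more, with a median of -0.35. The median of this list varied from -0.53 to 0.84 between the single livers. Ifit3, an antiviral RNA-binding protein, led it, going from 4.05 to 2.65 (-1.41, SD 1.40 in the single livers). Of 31 interferon list promoters, 58.1% held the response element ISRE, searched on both strands as a pair of TTTC runs 2 bases apart, against 3.18% of all promoters. The window of Ifit3, on the plus strand at chr19:34583279-34583558 (RefSeq, GRCm38.p6), shows 2 of them in capitals.
Ifit3: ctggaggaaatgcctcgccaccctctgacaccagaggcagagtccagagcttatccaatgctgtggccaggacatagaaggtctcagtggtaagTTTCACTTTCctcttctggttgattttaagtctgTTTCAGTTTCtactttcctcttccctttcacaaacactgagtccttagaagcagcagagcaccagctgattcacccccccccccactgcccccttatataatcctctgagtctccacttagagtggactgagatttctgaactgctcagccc
The lower genes as a whole held it in 5.41%.

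Lower genes outside these groups were led by Chrna4 (ENSMUSG00000027577.14, chr2:181018380-181043546), a nicotinic acetylcholine receptor subunit, which went from 5.86 to 2.29 (-3.58). The carboxylesterase Ces3b went from 8.04 to 5.47 (-2.56), the arrestin Arrdc3 from 6.82 to 4.32 (-2.51) and the endothelial gene Esm1 from 2.62 to 0.40 (-2.23). Of these, Ces3b, Arrdc3 and Esm1 were lower by 2.31 or more at 3 months as well, with -2.52, -3.39 and -2.31, but Chrna4 differed by 1.16. Of the 25 genes with the largest negative differences, 20 differed by more than the range of the single livers and 9 were also lower by 1 or more at 3 months. The count of 20 is in part set by choosing genes of large difference. All 25 stood above their 48 h level at 72 h without ATRi, and 17 were then within 1 of their 0 h level. The genes were chosen by their low 48 h mean, so part of such a move is expected from the choice alone. The share over all genes was not computed, and the mouse numbers at 72 h without ATRi all occur at 0 h too.

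The 48 h comparison at 3 months shares no samples with that at 12 months. There 418 genes (3.76%) stood higher by 1 or more, and 297 (2.67%) stood lower. Of the genes higher at 12 months, 241 were higher at both ages, which is 66.4% of the 12-month genes and 57.7% of the 3-month genes. Of those lower, 59 were lower at both ages, or 28.6% and 19.9%. Across all genes the differences at the 2 ages had a Pearson r of 0.617 and a Spearman rho of 0.461, given as a description, since genes are not independent replicates. The difference between the ages passed limma, with the spread borrowed from the 4 single livers, for 127 genes (1.14%).

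Only 14 genes were past 1 in opposite directions at the 2 ages. Higher at 12 months and lower at 3 months were Cyp4a14, Cyp4a31, Cyp4a10, Cyp4a32, Acot3, Pdk4, Lgals4 and Slc25a30. Lower at 12 months and higher at 3 months were Chrna4, Orm3, Cxcl14, Phlda2, Ccl2 and Ccl7. In all 14, the age with the higher level at 0 h had the lower level at 48 h. Such a crossing is largely set by choosing genes with opposite directions, so it is given as a description. Orm3, for instance, stood at 6.62 and 2.86 at 0 h at 12 and 3 months, and at 4.63 and 5.68 at 48 h. With 1 mean per group, a difference between ages in the 0 h livers and one in the 48 h livers both enter such values.

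**Figure D4:**
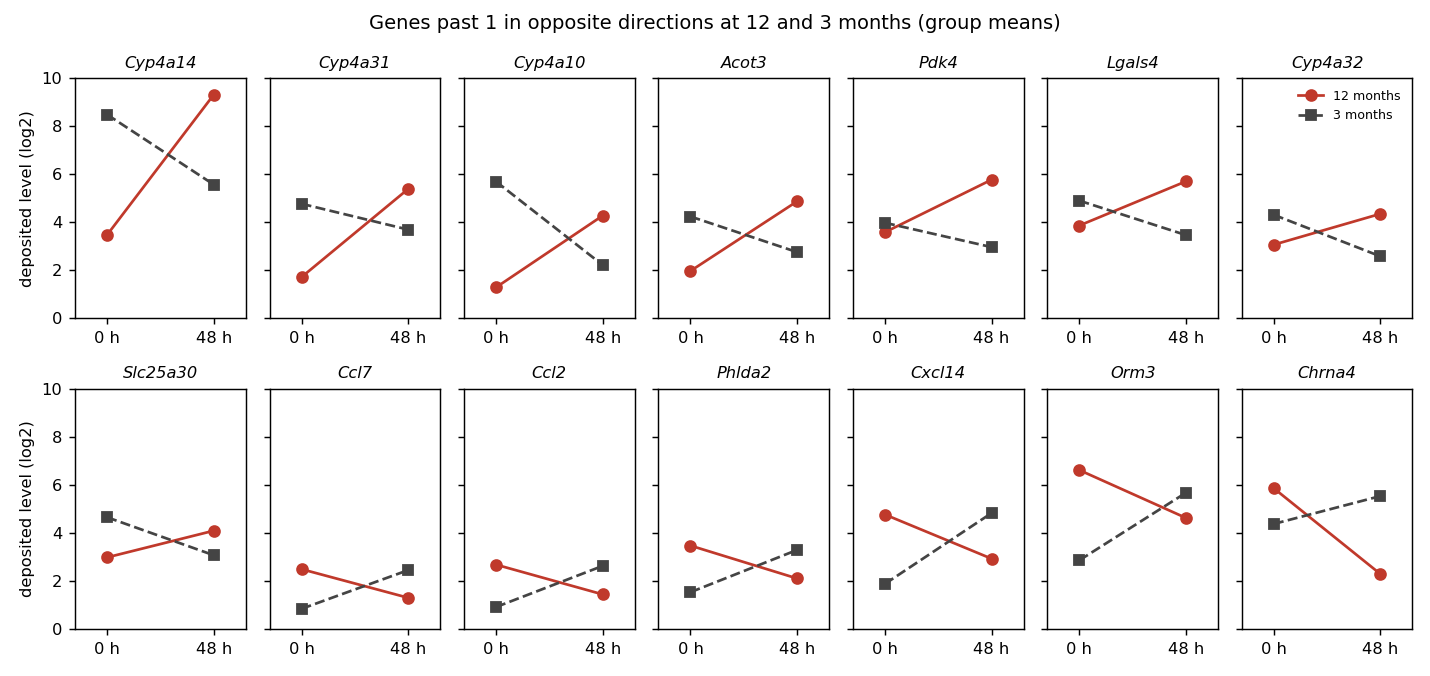
Level (y axis, log2 sigma, group means) at 0 h and 48 h for the 14 genes past 1 in opposite directions, 1 panel per gene, with 12 months as red circles and solid lines and 3 months as grey squares and dashed lines. The lines cross in all 14 panels, which the choice of genes with opposite directions largely sets. They cross most steeply for Cyp4a14, from 3.47 to 9.32 at 12 months and from 8.49 to 5.57 at 3 months.

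Called genes were not spread evenly over gene length. Genes of 9.94 to 17 kb had 5.48% higher and 2.77% lower by 1 or more, and genes of 82.1 kb and over had 0.519% and 0.231%.

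**Figure D5:**
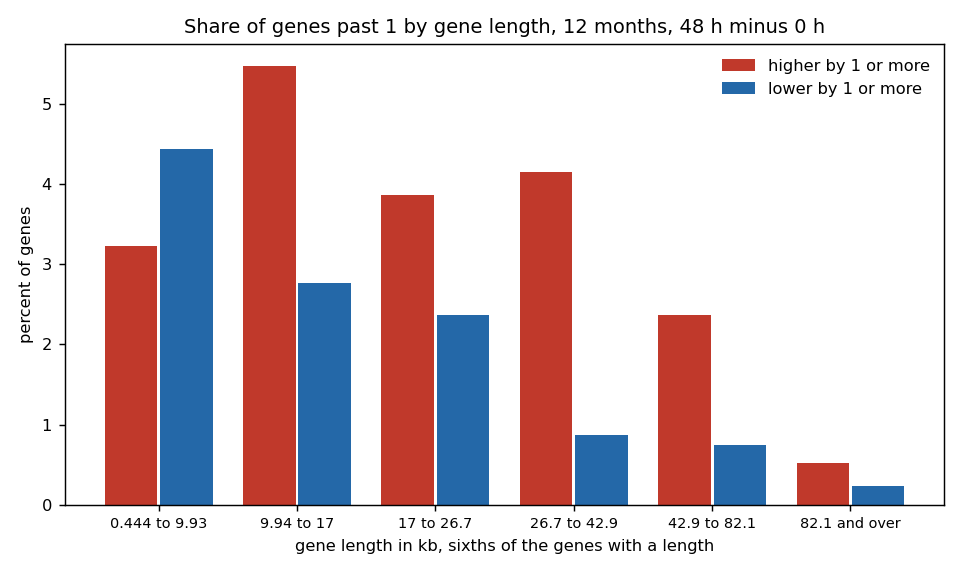
Share of genes higher and lower by 1 or more at 48 h (y axis, percent of the genes in each group), for 6 equal groups of genes by length (x axis, kb), at 12 months. The share of higher genes is 5.48% in the second group and 0.519% in the longest.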

How the data were processed

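Polyadenylated RNA of mouse liver was sequenced, and the authors deposited 12 tables of expression levels, each listing the same 11119 genes in the unit log2 of a quantity that the file headers call sigma and do not define. The build GRCm38/mm10 is named in the submitters' processing notes. How reads were aligned, counted, filtered and scaled is not given in the sources used here, and sample depth is unknown. The authors deposited 8 groups as 1 mean each, including both compared here. The 12-month ATRi group at 72 h also has its 4 livers, whose deposited mean is not the mean of their log2 levels (median offset 0.088). Batches are not labelled.

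The 48 h mean minus the 0 h mean was taken for every gene with no filter or pseudocount, and differences of 1 or more were counted. As an alternative, limma 3.58.1 (R 4.3.3) was fitted across all genes with the spread borrowed from the 4 livers, the means weighted by their number of mice, and Benjamini-Hochberg adjustment at 0.05. It was tested on data simulated with the spread of the 4 livers in every group, which cannot check whether the other groups vary like those livers. Coordinates and identifiers are from GENCODE release M21, matched for 10409 entries, and 507 entries join overlapping genes. Genes were described in 89 lists. Named genes are the 25 highest, the 25 lowest and, from each list, the first 3 measured and up to 8 with the largest absolute difference, or all members of lists with up to 12 measured. A few genes outside that rule were named after their values were seen. Members, lists and rules were chosen with earlier results of these data known. Other alternatives changed the scaling (centring, quantile normalization, a running median over 1001 genes along the level), added a pseudocount of 1 on the linear scale, or left out low or joined entries. A few genes are not reported here. Python 3.11.15, numpy 2.4.6, pandas 2.3.3 and scipy 1.17.1 were used.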

Additional observations from a re-analysis of the deposited data

Results flagged for a closer look

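Differences between the ages were tested with limma across all genes, with the spread borrowed from the 4 single livers and Benjamini-Hochberg adjustment. This test was chosen after seeing the data. Of 11119 genes, 127 (1.14%) passed, 61 with a larger and 66 with a smaller difference at 12 months, and 1709 had an unadjusted p under 0.05. The 7 named next are those among the 50 genes with the largest 12-month differences. That value is part of the quantity tested, so their number is given as a description. The 12-month difference exceeded the 3-month difference by 8.77 for Cyp4a14 (SE 1.30, adjusted p = 0.041 by limma) and by 4.75 for Cyp4a31 (SE 0.384, adjusted p = 0.014). It lay under the 3-month difference, with a value of -5.11 for the desaturase Scd1 (adjusted p = 0.019 by limma), -4.81 for Orm3 (0.023), -4.74 for Chrna4 (0.038), -3.25 for Pnpla3 (0.019) and -2.94 for Fasn (0.038). Each p rests on the assumption that mice of the other groups vary like the 4 livers at 72 h with ATRi.

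The 4 single livers were also searched for a liver far from the others, as the gap to its neighbour divided by the range. Of the 50 genes with the largest differences, 10 had such a liver, as had 688 of all 11119 genes (6.19%), where chance gives about 1 in 20 for a single gene. The 50 genes share the same 4 livers and are not independent. The share was 0.961 for Prr11, 0.948 for Top2a, 0.886 for Birc5, 0.878 for Pbk, 0.875 for Aurkb, 0.853 for Ptk6 and Orm3, 0.852 for Orm1, and 0.837 for Nek2 and Ngp. These 72 h samples are in neither group compared at 48 h, though their mouse numbers are also 4 of the 8 at 0 h.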

How the results depend on the processing

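The counts of genes higher and lower by 1 or more, 363 and 206, became 376 and 199 when centred on the median of all genes (a shift of 0.017), 342 and 229 with quantile normalization, 351 and 206 with the running median subtracted, 285 and 137 with a pseudocount of 1, 306 and 177 with the lowest of 3 equal parts of the genes by level left out, and 351 and 198 without joined entries. Under limma with the borrowed spread, where no size is required, 622 genes passed as higher and 540 as lower. Of the genes counted by size, 329 of the 363 and 160 of the 206 also passed limma, a comparison chosen after seeing the data. None of the 918 named genes changed sign while past 1 under the scalings, the pseudocount or the omissions. With a pseudocount of 1, 135 of them moved by more than the SD of the single livers.

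List medians moved by more than the SD of the list median over the single livers as follows. With the pseudocount they became 1.27 for origin licensing, 0.88 for fork polymerases, 0.40 for G1 and S phase regulators, 1.37 for mitotic entry, 1.39 for the spindle checkpoint, 1.62 for kinetochores, 1.74 for mitotic kinesins, 1.71 for condensin and cohesin, 2.50 for cytokinesis, 0.58 for tubulins, 0.66 for homologous recombination, 0.61 for the Fanconi pathway, -0.28 for T and NK cells and -0.35 for neutrophils. With the lowest of these parts left out they became 1.55 for origin licensing, 0.60 for G1 and S phase regulators, 2.93 for mitotic entry, 2.16 for the spindle checkpoint, 2.82 for mitotic kinesins, 1.02 for tubulins, 0.55 for growth arrest genes, -0.002 for omega oxidation, -0.90 for fatty acid synthesis, 0.16 for glycolysis, 0.18 for immediate early genes, 0.20 for the clock, 0.23 for the ATF4 response, -0.18 for amino acid carriers, 0.079 for B cells and -0.06 for erythroid markers. Fewer members enter these medians. With quantile normalization they became 0.41 for G1 and S phase regulators, -0.23 for lipoprotein genes, -0.0625 for iron and haem genes and 0.68 for tubulins, and with the running median subtracted 1.44 for origin licensing, -0.053 for iron and haem genes and 0.68 for tubulins. Centring and leaving out joined entries moved no list median by that much.

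No paired analysis was possible because the 48 h and 0 h labels share no mouse numbers and only the means are given for both groups, and leaving out single mice was not run for the same reason. Depth is unknown. At the low end of the scale, 25 of the higher genes lie under the 5th percentile of the level at 0 h and 12 of the lower genes under that at 48 h.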

Other observations

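Gene length ran alongside the size of the differences beyond the shares given above for 6 equal groups. The shortest group had the largest share of lower genes, at 4.44%, and 3.23% higher. The SD of the differences was 0.692 in the second group and 0.260 in the longest, while the median SD of the 4 single livers was 0.262 and 0.228. The level at 0 h also differed between the groups, with medians of 3.83 and 1.39. Among genes with levels of 2 to 4 alone, the shares higher and lower by 1 or more were 10.3% and 4.19% in the second group and 0.412% and 0.206% in the longest.

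Directions were also compared between neighbouring genes that were both past 1. Of 37 pairs within 3 bins of 10000 bp in which both genes were past 1, 33 had the same direction, such as Gstp1 with Gstp2, Orm1 with Orm3, Hmox1 with Mcm5, and Rusc1 with Fdps and Pklr. The 4 pairs in opposite directions were Cyp4a32 with Cyp4b1, Tlr9 with Alas1, Slc39a4 with Tonsl, and Suv39h1 with Was. Sharing of reads within such pairs was not tested. Several pairs are members of 1 gene family, and some genes, such as those of the Acot family, enter more than 1 pair. The share with the same direction over all neighbouring pairs was not computed, so 33 of 37 has no base rate beside it.

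Of the 9268 genes in no list, 155 were higher and 130 lower by 1 or more. Among those higher, named here after their values were seen, Fbf1, a centriole protein, went from 3.29 to 6.47 (3.18, and 0.85 at 3 months), the zinc transporter Slc30a3 from 1.14 to 3.94 (2.80, and 0.62) and the surfactant protein Sftpa1 from 2.25 to 5.03 (2.78, and 0.83). Fbf1 ranged from 3.57 to 6.27 in the single livers. Among those lower, the white cell surface protein Spn (leukosialin) went from 3.33 to 1.33 (-2.00), the Fc receptor Fcgr4 from 3.07 to 1.50 (-1.57, and 0.14 at 3 months) and the blood cell factor Nfe2 from 2.54 to 0.68 (-1.86, and -1.42 at 3 months).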
